A study of Drosophila melanogaster with 2 samples.

Results

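Peaks at divergent promoters are peaks of Max-GFP between or beside the starts of genes that are transcribed away from each other. They were taken from the reproducible peak list of a ChIP-seq experiment on Drosophila melanogaster embryos. A peak was a member when its summit lay within 500 bp of the starts of at least 2 protein-coding genes on opposite strands, with the minus-strand start to the left of the plus-strand start. Peaks with a canonical E-box (CACGTG), a DREF element (TATCGATA) or the 8-base Ohler 1 core (GGTCACAC) within 100 bp of the summit, on either strand, were left out. The rule gave 880 of 4712 peaks, or 18.7% of the list and 30.8% of its 2855 promoter peaks, which are the peaks with a summit within 500 bp of any protein-coding start. The rule used position and sequence and no score.

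The embryos were whole, of mixed sex and collected from 0 to 24 h of development, and came from a transgenic line that makes Max with GFP at its C terminus. There was 1 group with 2 biological replicates, numbered 2 and 3, immunoprecipitated with an antibody against GFP after sonication to fragments of 200 to 800 bp. No treated, mutant or untagged group was analysed here, the promoter that drives the transgene is not given in the sources used here, and whole embryos of mixed stages average over all tissues. The comparisons below are therefore between kinds of promoter. The authors deposited peak lists with a score for each peak and no read counts, so the depth of the libraries is unknown. The reproducible list was made from both replicates and keeps peaks below a limit of the irreproducible discovery rate (IDR), a measure of how well 2 ranked lists match, and a peak in it is called an IDR peak.

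Max belongs to the family of basic helix-loop-helix leucine zipper factors and binds DNA as a dimer with Myc or with the repressor Mnt. Such dimers recognise the E-box, and Myc is known in flies for driving growth, ribosome synthesis and metabolism. A divergent or head-to-head promoter is a stretch of DNA that lies between the starts of a pair of genes read in opposite directions. Such pairs are common in the compact fly genome, and many of their genes serve functions that all cells need. Several short motifs are known at promoters of such housekeeping genes, among them the DREF element, bound by the factor DREF, and the Ohler motifs, numbered after a survey of fly core promoters.

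To show what lies between the starts where binding was strongest, the DNA between the facing starts is given for the 8 highest-scoring members with a gap of 60 to 300 bp that holds no exon, among the arms printed here. Each stretch is the plus strand of dm6 (Release 6, RefSeq sequence), 5′ to 3′, from the base after the minus-strand start to the base before the plus-strand start. Capitals mark matches on either strand to TATAAA, the word of the TATA box, to CGATA, a word that forms part of the DREF element and of sites of the boundary factor BEAF-32, to ATCGAT, to Ohler 6 (GGTATTTT) and to Ohler 7 (CATCNCTA). Where matches overlap they are run together. A match is a description of the letters and not a mapped binding site.
Chro and Ssl1, chr3L:22878985-22879088: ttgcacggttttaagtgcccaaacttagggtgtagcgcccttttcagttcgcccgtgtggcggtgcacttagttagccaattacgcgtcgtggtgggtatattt
Art3 and mRpS10, chr3R:15229409-15229664: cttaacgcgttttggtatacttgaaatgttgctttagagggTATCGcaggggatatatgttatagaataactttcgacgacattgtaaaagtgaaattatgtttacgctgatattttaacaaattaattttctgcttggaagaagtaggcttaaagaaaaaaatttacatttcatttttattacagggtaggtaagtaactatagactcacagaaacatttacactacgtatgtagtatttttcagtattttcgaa
Tcs5 and CHMP2B, chr3L:5139396-5139618: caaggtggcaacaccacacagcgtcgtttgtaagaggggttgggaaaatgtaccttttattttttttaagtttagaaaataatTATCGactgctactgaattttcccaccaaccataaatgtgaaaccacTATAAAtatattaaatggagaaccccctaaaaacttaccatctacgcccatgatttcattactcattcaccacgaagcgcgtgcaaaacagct
Lon and PIG-F, chr3L:19612200-19612454: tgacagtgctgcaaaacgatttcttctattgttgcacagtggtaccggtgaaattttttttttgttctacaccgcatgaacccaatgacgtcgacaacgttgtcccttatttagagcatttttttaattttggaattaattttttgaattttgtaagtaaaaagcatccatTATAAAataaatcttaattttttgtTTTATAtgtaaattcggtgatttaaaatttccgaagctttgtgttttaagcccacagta
Mkk4 and SLIRP2, chr3R:8650797-8651083: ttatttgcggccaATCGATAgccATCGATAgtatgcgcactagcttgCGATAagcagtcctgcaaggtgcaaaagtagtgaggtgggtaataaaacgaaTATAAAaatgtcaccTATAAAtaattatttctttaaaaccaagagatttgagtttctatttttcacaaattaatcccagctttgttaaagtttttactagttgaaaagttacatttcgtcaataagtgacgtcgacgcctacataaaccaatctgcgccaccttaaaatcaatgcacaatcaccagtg
Reps and l(2)gd1, chr2L:11106646-11106942: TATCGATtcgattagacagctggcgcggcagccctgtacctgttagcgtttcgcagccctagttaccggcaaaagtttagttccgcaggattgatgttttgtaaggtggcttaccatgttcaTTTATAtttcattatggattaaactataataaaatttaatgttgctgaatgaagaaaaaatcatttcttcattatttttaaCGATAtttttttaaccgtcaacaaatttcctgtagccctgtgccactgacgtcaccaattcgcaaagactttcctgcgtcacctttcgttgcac
Bdp1 and CG6565, chr2L:13373891-13374018: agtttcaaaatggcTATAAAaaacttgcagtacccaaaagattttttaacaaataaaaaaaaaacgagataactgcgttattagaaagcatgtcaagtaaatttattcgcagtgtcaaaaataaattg
CG13390 and CG17294, chr2L:8376798-8377034: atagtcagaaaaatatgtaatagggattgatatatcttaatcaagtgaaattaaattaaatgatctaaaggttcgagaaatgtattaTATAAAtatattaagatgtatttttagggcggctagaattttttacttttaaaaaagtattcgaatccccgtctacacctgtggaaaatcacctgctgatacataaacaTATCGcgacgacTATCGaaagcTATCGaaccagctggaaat

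The stretches differ in how many of these words they hold. The Mkk4 and SLIRP2 gap had 7 matches. The Reps and l(2)gd1 gap and the CG13390 and CG17294 gap had 4 each, and the Chro and Ssl1 gap had 0. In 7 of the 8 the summit lay inside the printed stretch. The Chro and Ssl1 summit lay 90 bp outside it, inside the transcribed side of Chro. GC content of the stretches ran from 26.6% for Bdp1 and CG6565 to 51.0% for Chro and Ssl1.

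Genes with a facing partner carried a Max-GFP peak more often than other genes. A facing partner is a gene on the other strand with a start at most 1000 bp away, the minus start being the left one. Of 5052 genes with a facing partner, 2430 (48.1%, Wilson 95% interval 46.7% to 49.5%) had an IDR summit within 500 bp of a start. Of 8893 genes with none, 1183 (13.3%, 12.6% to 14.0%) had one, an odds ratio of 6.04. Over all 13945 protein-coding genes on the main arms the share was 25.9%. These counts include the peaks with an E-box, DREF element or Ohler 1 core.

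Genes of a pair share summits, so the comparison was repeated with 1 strand at a time, a choice made after the data were seen. Among minus-strand genes the share was 47.8% with a facing partner and 13.9% without (odds ratio 5.69, two-sided Fisher exact p = 1.21e-206). Among plus-strand genes it was 48.4% with a facing partner and 12.7% without (odds ratio 6.43, exact p = 3.03e-229). Both strands thus showed a difference of like size. A start close by on another side did not go with a raised share. Genes with another start within 1000 bp but none facing had a summit in 122 of 933 cases (13.1%, 11.1% to 15.4%), and genes with no other start within 1000 bp in 1061 of 7960 cases (13.3%). Genes with a facing partner were above the first of these by an odds ratio of 6.16 (Fisher exact p = 5.65e-99). This last comparison counted both genes of a pair, which can share a summit, so its genes are not independent. These p-values and intervals cover counting error over genes and do not describe the spread between embryos.

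The share moved with the distance between the facing starts. It was 50.8% of 833 genes at gaps of 1 to 100 bp, 44.5% of 685 genes at over 100 to 200 bp and 66.0% of 1045 genes at over 200 to 300 bp. It was then 59.0% of 753 genes at over 300 to 400 bp, 46.3% of 499 genes at over 400 to 500 bp and 27.2% of 1237 genes at over 500 to 1000 bp. The interval of the over 200 to 300 bp class, 63.1% to 68.8%, overlapped none of the others. Even the widest class, with an interval of 24.8% to 29.8%, lay above the 13.3% of genes with no start close by. A summit near the partner's start also counts for a gene when it lies within 500 bp of the gene's own start. This can raise the share above that of genes with no start close by, and its part in the difference was not tested. Both genes of a pair were counted in these classes and can share a summit. The intervals are therefore too narrow, and differences between neighbouring classes were not tested.

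**Figure D1:**
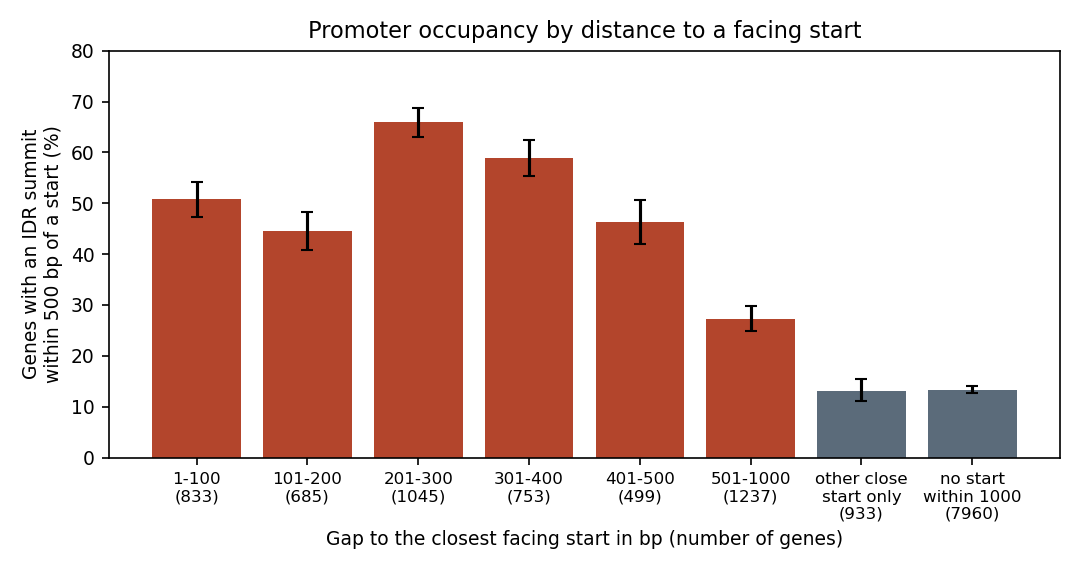
Bars give the percent of protein-coding genes with an IDR summit within 500 bp of a start, with 95% Wilson intervals, for classes of the gap to the closest facing start in bp and, at the right, for genes without a facing partner; the number of genes is in brackets. The bar for gaps of over 200 to 300 bp is the highest at 66.0%, and both bars at the right are lower than all others, at 13.1% and 13.3%.

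The members stood at 817 distinct pairs of facing genes, with 1632 genes in all, or 11.7% of all protein-coding genes. In 836 members only the 2 genes of the pair had a start within 500 bp, and in 44 members 3 or more had one. The most crowded was a summit on chromosome arm 3R with starts of 10 genes within 500 bp, all of them separately annotated products of the pre-mod(mdg4) locus, whose exons are joined to mod(mdg4) by trans-splicing. It scored 395. Of the divergent peaks 293 of 1173, or 25.0%, were left out for a motif. The DREF element was found in 147 of them, the Ohler 1 core in 93 and the E-box in 89, and some held more than 1.

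The gap between the facing starts was short at most members. Its median was 281.5 bp, with quartiles of 210 and 383 bp and a range of 2 to 897 bp, and 484 members (55.0%) had a gap of over 200 to 400 bp. Of all 5052 genes with a facing partner, 1045 had the closest facing start at over 200 to 300 bp and 753 at over 300 to 400 bp. These count genes and not peaks, and the members' gaps were not tested against them. The rule caps the gap at about 1000 bp and thins out gaps over 500 bp, because the summit has to be near both starts. The shortest gap was that of dpa and didum, 2 bp, with a summit 128 bp inside the transcribed side of dpa and 130 bp upstream of didum. The gene dpa encodes a subunit of the replicative MCM helicase and didum a class V myosin.

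The summit lay between the facing starts in 705 of 880 members (80.1%, 77.3% to 82.6%). The distance upstream of the nearer start had a median of 80.5 bp, with quartiles of 15 and 123 bp. At the 1374 one-sided promoter peaks, which have no facing pair of starts and none of the 3 motifs, the median was 126 bp upstream of the nearest start (13 to 238 bp), and 77.8% of the summits lay upstream. Neither share was tested against the other, because being near 2 facing starts sets the place of a summit in part. The members' share includes 87 with gaps over 500 bp, whose summits the rule holds between the starts. The 175 members with a summit outside the gap lay a median of 52 bp inside one transcript and 173 bp upstream of the other start.

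In the narrowest gaps most summits lay to one side, and in wider gaps they lay inside. The summit was between the starts in 25 of 117 members at gaps of 1 to 100 bp (21.4%) and in 52 of 90 at over 100 to 200 bp (57.8%). It was between them in 263 of 289 at over 200 to 300 bp (91.0%), in 181 of 195 at over 300 to 400 bp (92.8%) and in 97 of 102 at over 400 to 500 bp (95.1%). A wide gap also gives a summit more room inside it, and the rule leaves it less room outside. At gaps over 500 bp the rule allows no summit outside, and all 87 such members lay between the starts. The rise of this share with the gap is thus set in part by the rule. Summits within 50 bp of the midpoint were 60.2% of the members at over 200 to 300 bp, and 42.1% at over 300 to 400 bp. They were 21.6% at over 400 to 500 bp and 20.7% at over 500 to 1000 bp. A fixed distance from the midpoint is a smaller part of a wider gap, so these shares are not compared between classes. The median distance upstream of the nearer start was 90.0 bp at over 200 to 300 bp, 110 bp at over 300 to 400 bp, 112 bp at over 400 to 500 bp and 186 bp at over 500 to 1000 bp. The plus-strand start was the nearer one in 476 members and the minus-strand start in 403.

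**Figure D2:**
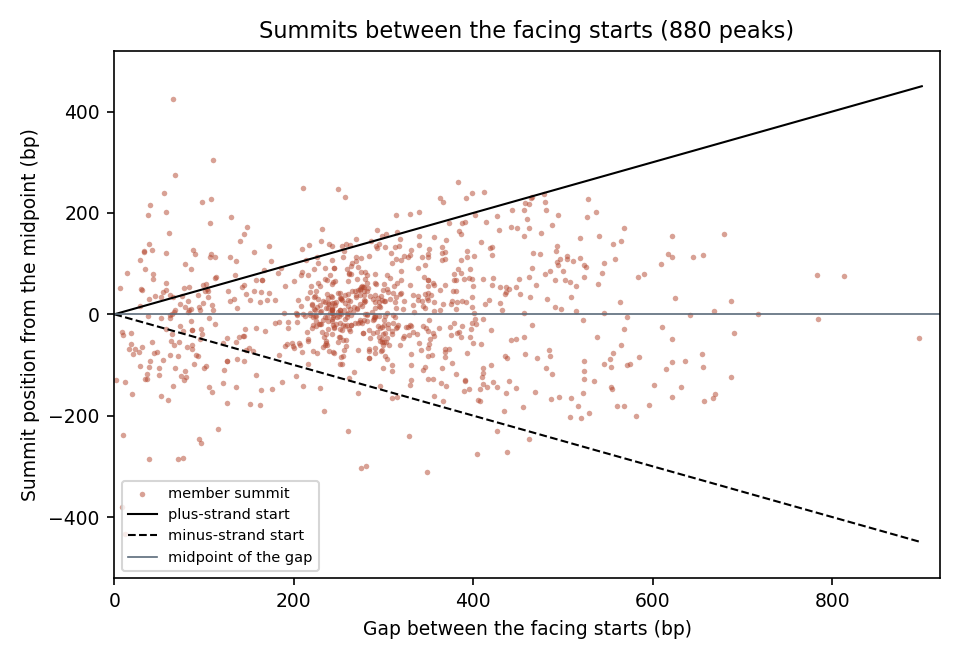
Each point is 1 of the 880 members, with the gap between its facing starts in bp on the x axis and the position of its summit from the gap's midpoint in bp on the y axis; the lines mark the starts and the midpoint. Points crowd around the midpoint at gaps of over 200 to 300 bp, where 60.2% lie within 50 bp of it, and lie over a wider range of distances at wider gaps.

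Summit positions are only as fine as the lists. The median peak width was 436 bp, which 617 members had exactly, and the summit was at the middle of the interval in 70.9% of members. In the replicates' own lists, the summit of the overlapping peak lay between the starts in 79.4% of members for replicate 2 and 78.8% for replicate 3, and those summits were a median of 38 bp apart (quartiles 15 and 80 bp). At 63 pairs there were 2 member summits, and in 53 of these they were 199 to 210 bp apart. No neighbouring summits anywhere in the IDR list were closer than 199 bp, and 238 of its 298 spacings under 300 bp fell at 199 to 210 bp. The values of such doubled members are not independent. With only the highest-scoring of summits under 300 bp apart kept, an alternative chosen after the data were seen, 790 members remained and 81.8% of the summits lay between the starts.

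The members' scores were higher than those of one-sided promoter peaks without the 3 motifs. The score is the authors' value for each peak and was used only within the IDR list. Members had a median of 155 (quartiles 115 and 229, range 87.3 to 1307), against 134 in one-sided peaks (quartiles 106 and 205, range 87.0 to 1561). Divergent peaks that held one of the 3 motifs had a median of 157. A score above the median of all promoter peaks, 143, was found in 500 of 880 members (56.8%) and in 614 of 1374 one-sided peaks (44.7%), an odds ratio of 1.63 (two-sided Fisher exact p = 1.94e-08). Among IDR peaks scoring above the list's median, the cutoff was set anew at the median of the promoter peaks kept. Around that higher cutoff no difference was seen, with 270 of 532 members and 338 of 664 one-sided peaks above it (odds ratio 0.99, Fisher exact p = 1). The share above 143 was not compared there. At the top of the list members were 30 of the 100 highest IDR peaks and one-sided peaks 34. Score followed the gap as well, with a median of 175 for members at over 200 to 300 bp, 142 at 1 to 100 bp and 134 at over 500 to 1000 bp.

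**Figure D3:**
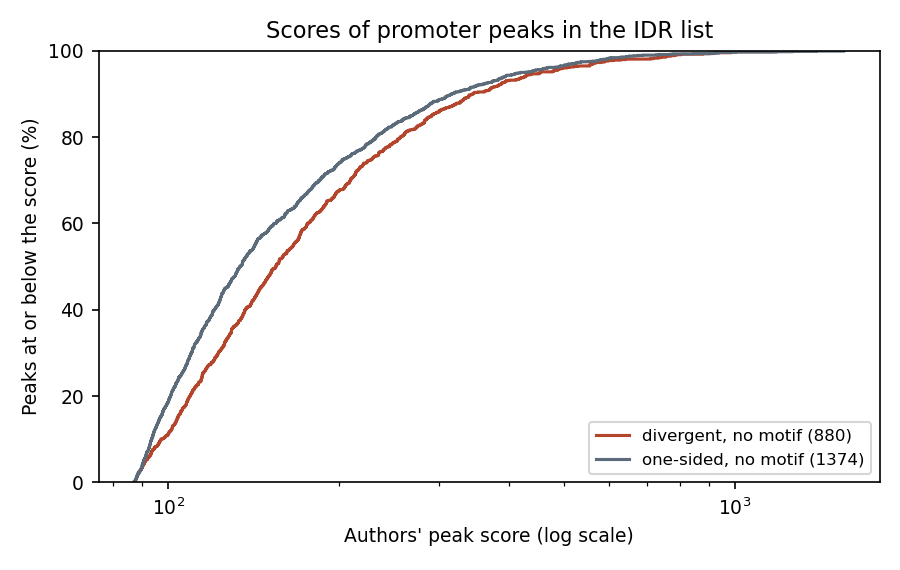
Cumulative percent of peaks at or below each authors' score (log scale) for the 880 members and the 1374 one-sided promoter peaks without the 3 motifs. The members' line lies to the right over most of the range, with a median of 155 in members and 134 in one-sided peaks, and the lines meet at the high end.

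Members overlapped a high-ranked peak of both replicates more often than one-sided peaks did. The IDR list was itself made from these replicates, so this share is set in part by how its peaks were chosen. It is not independent of the score difference above. A peak among the 4712 highest of each replicate overlapped 739 of 880 members (84.0%) and 1031 of 1374 one-sided peaks (75.0%), an odds ratio of 1.74 (Fisher exact p = 4.15e-07). For replicate 2 alone the shares were 93.3% of members and 89.4% of one-sided peaks (exact p = 0.00198), and for replicate 3 they were 90.0% of members and 84.4% of one-sided peaks (exact p = 1.1e-04). Among IDR peaks above the list's median score nearly all were overlapped, 528 of 532 members and 656 of 664 one-sided peaks. This left little room for a difference, and the test was not passed (odds ratio 1.61, exact p = 0.564). Some peak of each full list overlapped 876 members, and the replicate ranks of these had a Spearman correlation of 0.76 across peaks, which are not independent replicates.

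**Figure D4:**
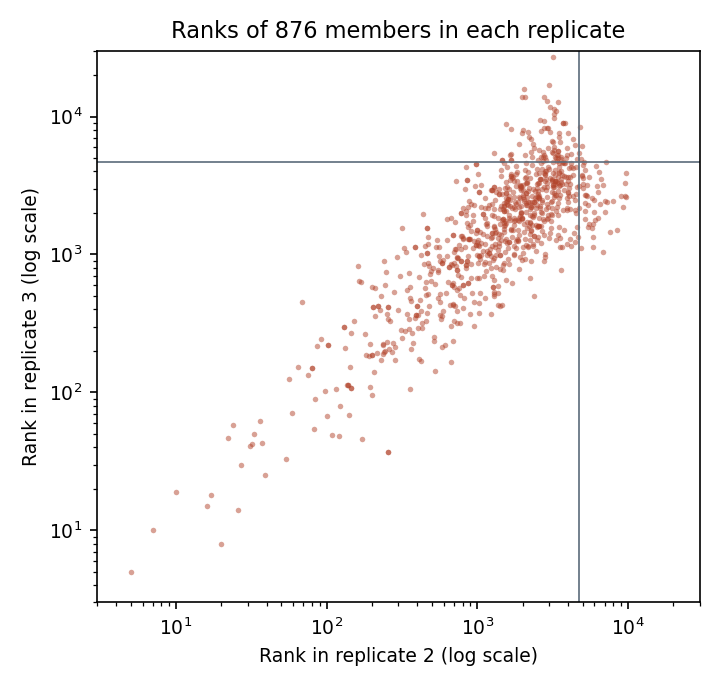
Each point is 1 of the 876 members overlapped in both replicates, placed by the rank of the overlapping peak in replicate 2 (x axis) and replicate 3 (y axis), both on log scales with rank 1 the highest score; the lines mark rank 4712. Most points lie near the diagonal, with the scatter widest beyond rank 1000.

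The strongest members stood at genes of varied function. The highest was at Chro, which encodes the chromodomain protein Chromator of interbands and the spindle, and Ssl1, which encodes a subunit of the transcription and repair factor TFIIH. Its score was 1307, its IDR rank 5 and its rank 5 in both replicates, and its summits in the replicates were 2 bp apart. The next, at Art3 (an arginine methyltransferase) and mRpS10 (a mitochondrial ribosomal protein), scored 1174 and ranked 7 in replicate 2 and 10 in replicate 3. Its summit lay 119 bp upstream of Art3 and 138 bp upstream of mRpS10. The peak at Tcs5, a kinase of the KEOPS complex for tRNA modification, and CHMP2B, of the ESCRT membrane-remodelling machinery, scored 996 and was placed much the same, 108 bp upstream of Tcs5 and 116 bp of CHMP2B. These members were strong in both libraries and near the middle of their gaps, other than the Chro peak.

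The summit was inside the gap as well at Lon, the mitochondrial protease, and PIG-F, of GPI anchor synthesis, with a score of 928 and a summit 136 bp upstream of Lon and 120 bp of PIG-F. At Mkk4, a kinase of stress signalling, and SLIRP2, a mitochondrial RNA-binding protein, the score was 805 and the distances were 175 bp to Mkk4 and 113 bp to SLIRP2. At Reps, of endocytosis, and l(2)gd1, which acts in endosomal sorting of Notch, the score was 771, with 178 bp to Reps and 120 bp to l(2)gd1. The peak at Pdrg1 and Pal1, an enzyme that amidates peptides, scored 783, with 185 bp to Pdrg1 and 161 bp to Pal1.

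Others of the 12 highest had the summit far off centre or outside the gap. The gap between mRpS23, a mitochondrial ribosomal protein, and CenG1A, a GTPase-activating protein for Arf, was 492 bp, and its summit, with a score of 904, lay 371 bp upstream of mRpS23 and 121 bp upstream of CenG1A. Fbw5, an F-box protein, and CG9147 scored 986, with the summit 145 bp upstream of Fbw5 and 11 bp inside CG9147. At the narrow gaps of mRpL23 and CG9004 (50 bp, score 879) and of CG11309 and CG7632 (39 bp, score 789), the summit was 80 bp inside mRpL23 and 84 bp inside CG11309. In the replicates the ranks of the 12 highest ran from 5 to 39 in replicate 2 and from 5 to 47 in replicate 3.

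A few members differed strongly between replicates. The peak of RpS27, a cytoplasmic ribosomal protein, and Nup37, of the nuclear pore, ranked 257 in replicate 2 and 37 in replicate 3, and its second summit was overlapped by the same replicate peaks. Sec61alpha, the main subunit of the protein channel of the endoplasmic reticulum, and Daxx, a histone chaperone, had ranks of 6828 in replicate 2 and 1038 in replicate 3. In the other direction, Pus10 and ND-15 had ranks of 1992 in replicate 2 and 13887 in replicate 3. The peak of sav, a scaffold of the Hippo pathway, and Ublcp1 ranked 2043 in replicate 2 and 15864 in replicate 3, with replicate summits 249 bp apart. CG17385 and Sin1, a subunit of TORC2, ranked 3201 in replicate 2 and 27116 in replicate 3. Apart from RpS27 and Nup37 these members had low scores in the IDR list, from 89.7 to 130.

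The genes of the members' pairs were counted by function on 21 lists. Genes on any list were in a member's pair in 283 of 1490 cases (19.0%), beside 11.7% of all protein-coding genes and 32.3% of the 5052 genes with a facing partner. Only genes with a facing partner can be in a member's pair. The share of a whole list thus depends on how many of its genes have one, and no list was tested. At 276 members 1 or both genes were on a list, at 28 both were, and at 4 both were on the same list. These 4 were Ranbp21 and Elys, of nuclear transport and the pore, RPA1 and Mcm2, of DNA replication, Exo84 and Vps2, and Cog3 and Sec5, of membrane traffic. Their scores ran from 133 to 165.

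Translation was represented most by the mitochondrial ribosome and the enzymes that charge tRNAs. Of 75 mitochondrial ribosomal protein genes 28 (37.3%) were in a member's pair, and 59 had a facing partner at all. Of 33 aminoacyl-tRNA synthetase genes 13 (39.4%) were in one, led by SerRS with CG17260, whose gap of 8 bp had a summit with a score of 487. Of 86 cytoplasmic ribosomal protein genes 19 (22.1%) were, although 74 had some IDR summit within 500 bp. RpS27 (score 556) and RpL32 (506) were the highest-scoring of those named. Ribosome biogenesis factors gave 13 of 44 (29.5%), led by Nnp-1 with the glutaredoxin gene Grx3 at 555, and translation factors 9 of 66 (13.6%). That last list held EloA, which encodes a subunit of the transcription factor Elongin and no translation factor. A facing partner was present for 23 of the synthetase genes and 53 of the cytoplasmic ribosomal protein genes. It was present for 33 of the ribosome biogenesis genes and 32 of the translation factor genes.

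Transcription, repair and chromatin genes were also among the members. A facing partner was present for 24 genes of the RNA polymerase list, 33 of TAFs and Mediator and 41 of DNA repair. It was present for 28 nuclear pore and transport genes and 55 chromatin genes. RNA polymerase subunits and basal factors gave 14 of 38 (36.8%), with Brf, of the RNA polymerase III machinery, and sds22 at a score of 521. TAFs and Mediator subunits gave 14 of 47 (29.8%), DNA repair genes 20 of 59 (33.9%) and nuclear pore and transport genes 13 of 39 (33.3%). Chromatin genes gave 20 of 84 (23.8%). Their 20 members had a median score of 243, with Chro at 1307, rept, a helicase of the TIP60 and INO80 complexes, with mRpL21 at 590.0, and brm, the ATPase of the Brahma remodeller, with the small GTPase gene Arl1 at 562.

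Further housekeeping lists lay between 12.1% and 28.0% of all their genes. A facing partner was present for 95 membrane traffic, 34 splicing, 50 replication and cell cycle and 19 chaperone genes. It was present for 44 oxidative phosphorylation, 26 proteasome, 34 ubiquitin ligation and 15 mitochondrial import and maintenance genes. Membrane traffic gave 42 of 150 genes (28.0%), with Vps33B and Fur1, a proprotein convertase, at 719. Splicing factors gave 10 of 38 (26.3%), replication and cell cycle genes 19 of 82 (23.2%) and chaperones 8 of 37 (21.6%). Oxidative phosphorylation gave 17 of 80 (21.3%), the proteasome 10 of 49 (20.4%), ubiquitin ligation 10 of 66 (15.2%) and mitochondrial import and maintenance 4 of 33 (12.1%). No member pair held a gene of the Hox and segmentation list (0 of 34), the chemosensory list (0 of 230) or the cuticle list (0 of 123). Facing partners were rare there, with 0 Hox and segmentation, 37 chemosensory and 13 cuticle genes having one.

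Other members with both genes on lists had them on different lists. GluProRS, a tRNA synthetase, faced AP-1sigma, of vesicle coats, at a score of 369. Cdk1, the mitotic kinase, faced mRpS7 at 221, and Sf3b6, of the spliceosome, faced Tnpo, a nuclear import receptor, at 239. Su(var)205, which encodes the heterochromatin protein HP1a, faced Ssb-c31a, a single-stranded DNA-binding protein that the list of ribosome biogenesis factors holds, at 172. Sec3, of the exocyst, faced COX7B at 205, and Vps39 faced the initiation factor gene eIF1A at 186. Rad60 faced EloA at 169, and LSm1, which acts in mRNA decay though the splicing list holds it, faced Xpd, a TFIIH helicase, at 157.

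The DNA under the summits was rich in A and T. Within 50 bp to each side of a member's summit the median GC content was 30.7%, against 51.5% in windows of the same length centred 500 bp to the left and 50.5% to the right. At one-sided peaks it was 34.7% at the summit, 43.6% to the left and 42.6% to the right. Among members the lowest GC was at gaps of over 200 to 300 bp, with a median of 28.7%. Both starts of a pair are within 500 bp of a member's summit by the rule, so the centres of its flanks lie past the starts on both sides, which is not so at one-sided peaks.

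**Figure D5:**
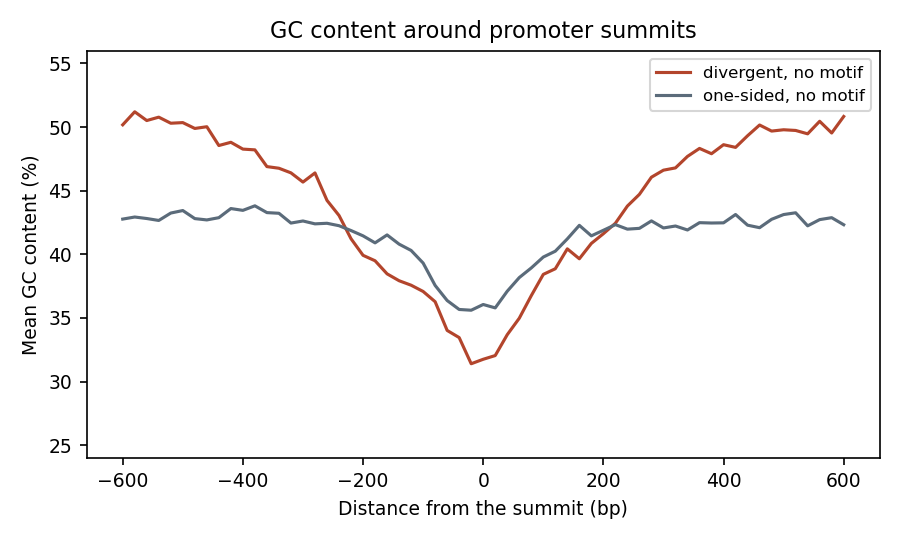
Mean GC content in percent, in windows of 21 bp at steps of 20 bp, against distance from the summit in bp for the 880 members and the 1374 one-sided promoter peaks without the 3 motifs. The members' line is near 50% at 600 bp on both sides and falls to 31.7% at the summit, below the 36.1% of one-sided peaks.

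Of 14 motifs that the rule had not used, 6 were more frequent at the members' summits than in both flanks and 3 were less frequent, by the exact two-sided McNemar test with the larger p kept and Benjamini-Hochberg adjustment over the motifs. Both strands were searched within 50 bp to each side. TATAAA was within 50 bp of 27.8% of summits, against 5.80% of left and 3.98% of right flanks (exact test, adjusted p = 5.81e-35). CGATA was at 21.0% of summits, against 10.6% and 10.7% of the flanks (exact test, adjusted p = 1.33e-08). Octamers 1 base from the DREF element, which overlap CGATA and ATCGAT, were at 9.09%, against 2.16% and 2.39% (exact test, adjusted p = 8.36e-09). Ohler 7 was at 3.86% (exact test, adjusted p = 1.93e-04), ATCGAT at 6.02% (0.0334) and Ohler 6 at 1.59% (0.0297) of summits. The base composition moved with these words, and its part in the counts was not tested. All hexamers made of A and T were more frequent at summits than in flanks, by 2.79 to 7.97 times, and TATAAA, at 5.70 times, was 14th of 36. By the same ratio CGATA was 4th of 160 words of 5 letters with 2 G or C, and ATCGAT was 120th of 492 words of 6 letters with 2 G or C.

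TATAAA was rare at the place of a TATA box upstream of the members' starts. In the 30 bp from 45 to 16 bp upstream of the starts, on the gene's own strand, it was found at 2.10% of the 1760 starts of the members' pairs, counted once for each peak (1.53% to 2.88%). At the nearest start of one-sided peaks it was found at 3.86% (2.96% to 5.01%), and at all 19607 protein-coding starts at 7.62%. In windows of the same length as at the summits, centred 80 bp upstream of all protein-coding starts, TATAAA on either strand was in 16.2%, CGATA in 23.0% and ATCGAT in 9.97%. The rule removed peaks with TATCGATA, which holds both CGATA and ATCGAT, near the summit, and neither these windows nor the flanks had such a removal, so the members' shares of both words are not compared with those of all starts.

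The words that were rarer at the summits included relatives of the E-box. Hexamers 1 base from CACGTG, other than CACGCG and CATGTG, were at 15.3% of summits, against 27.6% of left and 28.3% of right flanks (exact test, adjusted p = 6.63e-09). CACGCG, a variant that Myc and Max can bind, was at 1.36%, against 3.18% and 4.55% (exact test, adjusted p = 0.0332). The GAGA element (GAGAGAG), the site of GAGA factor, was at 1 of 880 summits, against 11 left and 9 right flanks (exact test, adjusted p = 0.0334). These words hold more G and C than the summit windows, so the same limit applies. CATGTG (3.07%), CAGCTG (5.34%), the initiator (TCAGT, 14.9%), the Zelda site (CAGGTAG, 0.57%) and octamers 1 base from the Ohler 1 core (5.57%) did not pass the test. With either replicate left out neither the GAGA element nor CACGCG passed against the flanks, and over the 13 alternatives run the GAGA element did not pass in 6 and CACGCG in 5. Of the words above the flanks, Ohler 6 did not pass in 6 alternatives, with adjusted p from 0.0703 to 0.577 (exact test), and ATCGAT did not in 6, with adjusted p from 0.0501 to 0.532. Ohler 7 did not pass with starts within 250 bp (exact test, adjusted p = 0.0625).

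Against one-sided promoter peaks 3 of the 14 motifs differed, by the Fisher exact test with Benjamini-Hochberg adjustment. TATAAA was at 27.8% of member summits and 22.1% of one-sided summits (odds ratio 1.36, exact test, adjusted p = 0.0149). Its share in members was 1.26 times that in one-sided peaks, which was 22nd of the 36 hexamers made of A and T and below their median of 1.28 times, so the difference was no larger than for such words in general. The GAGA element was at 0.11% of member summits and 2.18% of one-sided summits (odds ratio 0.051, exact test, adjusted p = 8.91e-05), and CACGCG at 1.36% of member summits and 3.13% of one-sided summits (odds ratio 0.43, exact test, adjusted p = 0.0355). The GAGA odds ratio rests on 1 member summit, and was 0.13 without replicate 2 and 0.28 without replicate 3. Neither the GAGA element nor CACGCG was set against words of like composition. CGATA, at 21.0% of member summits and 17.2% of one-sided summits, did not pass (exact test, adjusted p = 0.0812), and hexamers 1 base from the E-box were at 15.3% of member summits and 15.9% of one-sided summits. The TATAAA difference was not passed with 1 start per gene (exact test, adjusted p = 0.185), with starts within 1000 bp (0.164), with motifs left out within 200 bp (0.249) or in the upper part of the list (0.0790). CACGCG did not pass in 6 alternatives, with adjusted p from 0.0518 without replicate 3 to 0.446 with starts within 1000 bp (exact test), and the GAGA element did not in the upper part of the list (0.0790).

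The members were spread over the large arms, with 101 on X, 171 on 2L, 164 on 2R, 190 on 3L and 254 on 3R, and 0 on chromosome 4. The share on X was 11.5% of members and 16.9% of one-sided peaks (odds ratio 0.64, Fisher exact p = 4.08e-04), and 15.5% of the genes with a facing partner were on X. A start of a non-coding RNA gene lay within 500 bp of 16 members (1.82%) and of 76 one-sided peaks (5.53%, odds ratio 0.32, Fisher exact p = 5.93e-06). The 2 classes differ by rule in the coding starts around the summit, so this share is not independent of the rule. Both comparisons were chosen after the data were seen.

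At the limit of the rule, the members farthest from a start were those of Fdh and CG4596, with the farther start at 500 bp and a score of 129, and of Fatp1 and Lrr47, at 499 bp and 90.8. Just outside were the peaks of CG6470 and HisRS, at 503 bp with a score of 162, and of Pde11 and CG15160, at 507 bp with 95.8.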

How the data were processed

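ChIP-seq peak lists of Max-GFP from 2 biological replicates of whole embryos were used. The authors deposited peak lists in narrowPeak form, 1 per replicate, 1 pooled and 1 after the IDR threshold. What aligner and which caller made them is not given in the sources used here. Values used are the authors' peak score, which has its own scale in every list, and the summit's offset in bp from the peak start as deposited. Each replicate list holds 30000 peaks, so their lengths say nothing of yield, and depth is unknown: no interval for it can be given.

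Coordinates are 1-based on dm6, set against the Ensembl annotation, release 115, and the RefSeq Release 6 sequence, on the 6 main arms. Each IDR row was taken as 1 summit. The facing pair of a summit is the pair of starts with the smallest summed distance to it. A replicate peak that overlapped by at least 1 bp counted as found, and the highest-scoring one was used. Shares carry 95% Wilson intervals. Fisher exact and McNemar tests were two-sided with a threshold of 0.05. The class rule and the gap were checked on simulated peaks, and the Fisher tests were not. For the motif calls against flanks no such check is relied on. Median GC content was 30.7% at the members' summits, 51.5% in the left flanks and 50.5% in the right flanks. The effect of this difference on the motif calls was not tested. Python 3.11.15, scipy 1.17.1, numpy 2.4.6 and matplotlib 3.10.9 were used. All p-values cover counting over sites.

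The members, gene lists, motifs and tests were chosen with earlier results of these data known. Genes were named by rule: the 12 highest-scoring members of distinct pairs, up to 3 members per list, up to 12 with both genes on lists, the 3 with the largest rank ratio between replicates in each direction, and those at the 500 bp limit. Some members that this rule takes are not reported here. The peaks of dpa and didum, of pre-mod(mdg4) and the 4 pairs on the same list were named after their values were seen. The strand-wise and close-start comparisons, word ranks, TATAAA near starts, shares at all starts, non-coding starts, arm shares and summit spacing were also chosen after the data were seen.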

Additional observations from a re-analysis of the deposited data

How the results depend on the processing

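The odds ratio of genes with against genes without a facing partner kept its direction and passed the test under every alternative run, including 5.77 to 5.95 with a replicate left out. The number of members was 569 with summits within 250 bp of a start and 532 with IDR peaks above the median score. Above the median score the score odds ratio was 0.99 (exact p = 1), below 1. Its cutoff was set anew there, at the median of the promoter peaks kept. The recovery odds ratio was 1.61 (exact p = 0.564), with nearly all peaks of both kinds overlapped. The cause was not tested. Recovery with a replicate left out could not be computed, since it needs both.

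The median gap was 243 bp with starts within 250 bp, 307 bp within 1000 bp, 290.0 bp with 1 start per gene, 279 bp with motifs left out within 50 bp, 288 bp within 200 bp, 274 bp with no motif left out, 274.5 bp above the median score, 282 bp with 1 summit per interval, 279.5 bp with the highest of close summits and 284 bp with either replicate left out. The share between the starts was 79.1% within 250 bp, 76.6% within 1000 bp, 79.4% with 1 start per gene, 83.3% above the median score, 81.8% with the highest of close summits and 78.1% to 78.8% with a replicate left out.

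Motif counts changed most. With starts within 250 bp 3 motifs were above both flanks; with motifs left out within 200 bp 1 was below, as with either replicate left out (1 to 1). Against one-sided peaks the number higher was 2 within 1000 bp, 0 with 1 start per gene, 0 with motifs left out within 200 bp, 3 with none left out, 0 above the median score, 5 in windows of 100 bp to each side and 3 with either replicate left out. The number lower was 1 within 1000 bp, 1 with 1 start per gene, 1 with motifs left out within 200 bp, 1 with none left out, 0 above the median score and 4 in windows of 100 bp to each side. No paired analysis was possible because there is only 1 group of samples. With no read counts, depth limits cannot be stated.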
